A study of Mus musculus with 9 samples.

Results

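The 38 genes described here were listed as chaperones and folding enzymes of the endoplasmic reticulum (ER) lumen, though the products of some, among them Qsox1 and Sdf4, occur in the Golgi. They were chosen by symbol as BiP and its cofactors, lectin chaperones and glycan-trimming enzymes, disulfide isomerases and oxidases, prolyl isomerases and luminal calcium-binding proteins, and each of the 38 matched 1 row among the 33211 genes of the deposited count table. All 38 passed the filter on low counts and were among the 14220 genes tested. The liver RNA came from male C57BL/6 mice, a standard inbred strain (C57BL6/J in the study's methods), which were 8 weeks old when feeding began and ate a high-fat diet (HFD) for 7 weeks. The diet had been kept for 7 days in a freezer at -20 °C (HFDfre, n = 5 libraries) or in a fridge at 4 °C (HFDfri, n = 4 libraries), and was renewed every 3 or 4 days. Both groups received the HFD, so the comparison is of the storage of the diet. Whole liver was used, and in these bulk libraries more transcript per cell and more of the cells that hold it cannot be told apart. The labels do not state outright that each library is a separate animal, and the p-values measure the spread between these libraries.

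Secreted and membrane proteins enter the ER unfolded, and the lumen holds the enzymes that fold them. BiP (Hspa5) is the ER member of the Hsp70 family and binds exposed hydrophobic stretches with the help of J proteins and nucleotide exchange factors, calnexin and calreticulin hold glycoproteins while their glucose residues are trimmed, and protein disulfide isomerases pair cysteines. When unfolded protein accumulates, the sensors ATF6, IRE1 and PERK start the unfolded protein response (UPR), which raises many of these genes, and hepatocytes, which secrete most plasma proteins, depend on this machinery.

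A regulatory sequence through which ATF6 and XBP1 are known to act is the ER stress response element (ERSE), searched here as CCAAT, then 9 bases of any kind, then CCACG, on both strands. RefSeq promoter windows (GRCm38.p6, 250 bases before to 50 bases after a gene start) were at hand for 34 of the 38 genes; Hyou1, Sil1, Manf and Erp29 were not in that table. The ERSE was in a window of 7 of the 34 (20.6%) and of 37 of all 27025 genes with a window (0.137%). The 27025 include genes that were not among the 14220 tested. An element known from the UPR could be foreseen among UPR genes, so these shares are a description and no test. The sequences of the 5 holders with the highest level are printed as a description. That of Creld2 was added after its values were seen, since it had the largest fold change. Each is written 5′ to 3′ on the strand of the gene, with up to 40 bases on either side of the element where no annotated exon is met. Capitals mark the end parts of the element, and CGTGG with ATTGG marks an element on the other strand.
Hspa5: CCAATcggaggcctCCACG
Hsp90b1: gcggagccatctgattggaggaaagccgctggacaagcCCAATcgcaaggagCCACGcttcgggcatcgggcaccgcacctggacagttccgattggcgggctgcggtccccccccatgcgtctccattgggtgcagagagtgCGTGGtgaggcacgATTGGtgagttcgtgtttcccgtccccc
Calr: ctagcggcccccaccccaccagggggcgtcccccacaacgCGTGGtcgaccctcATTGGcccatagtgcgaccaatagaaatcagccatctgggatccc
Canx: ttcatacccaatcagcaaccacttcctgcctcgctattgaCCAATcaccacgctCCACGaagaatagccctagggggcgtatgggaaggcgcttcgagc
Pdia6: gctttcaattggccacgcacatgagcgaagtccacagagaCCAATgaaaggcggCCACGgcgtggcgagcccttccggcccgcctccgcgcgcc
Creld2: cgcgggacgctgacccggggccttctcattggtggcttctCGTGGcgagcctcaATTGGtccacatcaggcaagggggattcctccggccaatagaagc
The Hspa5 element lies at chr2:34772025-34772043 on the plus strand, starts 65 bases before the RefSeq start and falls in the first exon of the GENCODE M21 model, and it is printed without its surroundings. The others are at chr10:86705510-86705694 (minus strand, Hsp90b1), chr8:84847035-84847133 (minus strand, Calr), chr11:50325760-50325858 (minus strand, Canx), chr12:17266451-17266544 (plus strand, Pdia6) and chr15:88819480-88819578 (plus strand, Creld2), all upstream of the annotated exons of their gene. Hsp90b1 held 2 matches, and Dnajc3 was the other gene with 1.

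Library totals ran from 58614917 to 69353439 estimated counts, and 15969 to 16561 genes had a count. The share taken by Gm26924, a ribosomal RNA-like locus, ran from 0.466% to 11.1% and was under 3% in 2 HFDfre and 3 HFDfri libraries. Mitochondrial genes took 11.4% to 19.8% of counts in HFDfre and 8.93% to 13.6% in HFDfri. The liver label held: all 10 hepatocyte markers were detected, with a summed level of 107784 to 114579 CPM (estimated counts scaled to the library total) in HFDfre and 97821 to 124134 CPM in HFDfri. Of 14 pancreatic acinar markers, which would mark a tissue very rich in ER chaperones, 10 were at 0 in every library, among them the trypsinogens Prss1 and Prss2, and the sum was 10.3 to 17.1 CPM in HFDfre and 17.5 to 25.6 CPM in HFDfri, nearly all of it Cela1. The 11 plasma and B cell markers summed to 79.3 to 115 CPM and 107 to 114 CPM, with Tnfrsf17 at 0 in every library.

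The genes of the ER folding machinery were for the most part higher in HFDfri, though the size of the difference rested on some of its libraries. The log2 fold change (HFDfri minus HFDfre) was above 0 for 36 of the 38 genes, against 49.1% of all tested genes, and the median was 0.28 against -0.01 over all tested genes. At an unadjusted p under 0.05 in edgeR's quasi-likelihood test, 17 genes were higher (44.7%) and 0 were lower, against 11.4% and 9.79% of all tested genes. After Benjamini-Hochberg adjustment over all tested genes, 1 of the 38, Qsox1, passed 0.05, against 1.05% of all tested genes. All 4 HFDfri libraries lay above all 5 HFDfre libraries for Canx, Mogs, Tmx1, Qsox1 and Calu (5 of 38, against 4.02% of all tested genes), and for none of the 38 did all HFDfri libraries lie below (3.66% of all tested genes). Within the libraries with a Gm26924 share under 3%, which leave out HFDfri 3, 34 of the 38 had a log2 fold change above 0 and the median was 0.25, with 5 higher at an unadjusted p under 0.05 (13.2%, against 4.81% of all genes in that fit) and 0 past the adjusted threshold (0.0138% of all genes).

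The libraries of HFDfri did not behave alike. The mean log2 CPM of the 38 genes was 5.70 to 5.81 in the HFDfre libraries, and 6.42, 5.69, 6.37 and 5.87 in HFDfri 1, 2, 3 and 4. HFDfri 1 and 3 stood apart, HFDfri 4 was a little above and HFDfri 2 below the HFDfre range. HFDfri 1 exceeded every HFDfre library for 31 of the 38 genes and HFDfri 3 for 24, where 24.2% and 28.4% of all tested genes did so. HFDfri 2 exceeded them for 11 genes and lay below all of them for 16 (24.1% and 23.3% of all tested genes), and HFDfri 4 exceeded them for 12 and lay below for 1 (20.6% and 22.2%). A level over 2 times the HFDfre mean occurred for 12 genes in HFDfri 1, for 8 in HFDfri 3 and for none in any other library. The share of all counts that fell on the 38 genes was 0.381% to 0.484% in HFDfre, 0.723% in HFDfri 1, 0.455% in HFDfri 2, 0.700% in HFDfri 3 and 0.486% in HFDfri 4. HFDfri 1 and 3 differed in Gm26924 share (0.931% and 5.21%), and the part of that share in the chaperone levels was not tested.

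**Figure D1:**
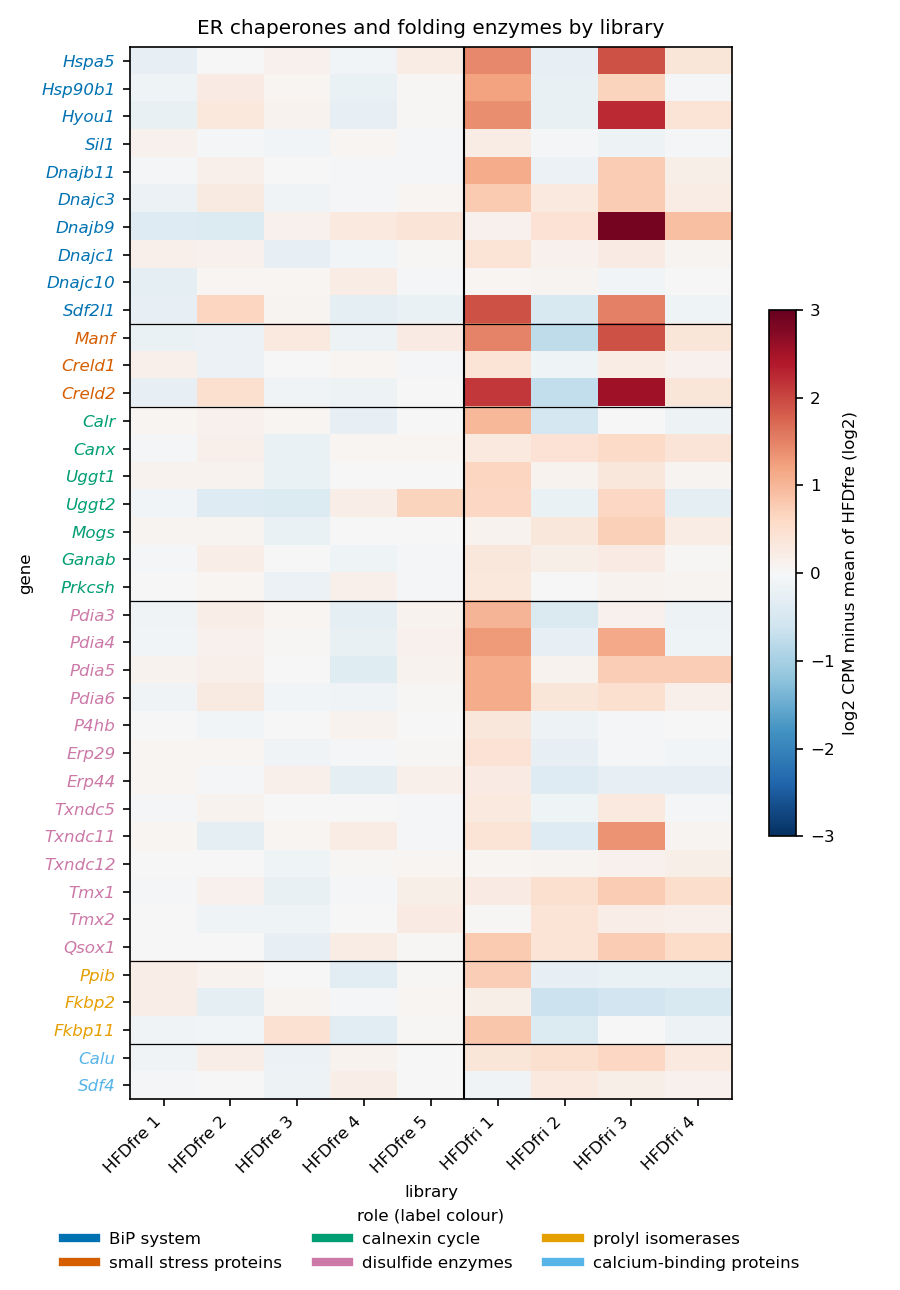
Each cell is the log2 CPM of a gene (row) in a library (column) minus the mean of the 5 HFDfre libraries, from blue (lower) to red (higher), with gene names coloured by role. The columns of HFDfri 1 and HFDfri 3 hold the deep red cells of the BiP system and the small stress proteins, and HFDfri 2 is pale or blue for most genes.

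Without HFDfri 1 the log2 fold change was above 0 for 28 of the 38 genes, the median was 0.17, and 7 genes (18.4%) passed the adjusted threshold, as did 7.65% of all genes in that fit. These were Dnajb9, Canx, Mogs, Tmx1, Qsox1 and Calu, higher in HFDfri, and Fkbp2, lower in HFDfri. Without HFDfri 3, 36 genes were above 0, the median was 0.24, 11 (28.9%) were higher at the unadjusted threshold, against 7.03% of all genes, and 0 passed the adjusted one, against 0.0694%. Without HFDfri 2, 6 (15.8%) passed the adjusted threshold, against 1.63% of all genes: Hspa5, Hyou1, Manf, Creld2, Pdia5 and Qsox1, all higher.

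The BiP system, with 10 genes, had a median log2 fold change of 0.54, and 6 of the 10 were higher at an unadjusted p under 0.05. Hspa5, which encodes BiP (ENSMUSG00000026864, chr2:34771970-34777547, plus strand, GRCm38), stood at 220.4, 263, 285, 247 and 305 CPM in HFDfre 1 to 5 and at 708, 219.6, 984 and 338 CPM in HFDfri 1 to 4. HFDfri 1, 3 and 4 lay above every HFDfre library and HFDfri 2 level with the lowest of them, so the groups overlapped. The means were 264 ± 32.8 and 563 ± 349.7 CPM (SD), and the log2 fold change of 1.09 ± 0.34 (SE) did not pass the test over all genes (adjusted p = 0.112 by edgeR). Without HFDfri 3 it was 0.68 ± 0.29.

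Hyou1 encodes the large Hsp70-related protein that exchanges nucleotide on BiP (ENSMUSG00000032115, chr9:44379490-44392369, plus strand). Its level was 38.4, 55, 48.2, 37.4 and 45.8 CPM in HFDfre 1 to 5 and 116, 37.8, 211 and 58.8 CPM in HFDfri 1 to 4. The order of the HFDfri libraries was that of Hspa5, with HFDfri 3 at 4.70 times and HFDfri 1 at 2.58 times the HFDfre mean, and the log2 fold change was 1.24 ± 0.38 (adjusted p = 0.112 by edgeR), or 0.66 ± 0.28 without HFDfri 3. Sil1, the other exchange factor of BiP, did not follow it: its means were 40.4 ± 2.45 and 40.4 ± 4.79 CPM, and the log2 fold change was 0.0015 ± 0.09.

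The J proteins, which hand clients to BiP and trigger its ATPase, varied among themselves. Dnajb9 (ERdj4) stood at 12, 11.8, 17.2, 19.4 and 20.4 CPM in HFDfre 1 to 5 and at 17.3, 21.2, 115 and 29.7 CPM in HFDfri 1 to 4. A single library, HFDfri 3 at 7.12 times the HFDfre mean, carried most of its log2 fold change of 1.5 ± 0.48 (adjusted p = 0.116 by edgeR), which was 0.49 ± 0.22 without that library. In HFDfri 1, where Hspa5 and Hyou1 were high, Dnajb9 lay inside the HFDfre range. Dnajc3 (p58IPK), an inhibitor of PERK as well as a J protein, was 114, 157, 120.4, 126 and 136 CPM in HFDfre 1 to 5 and 225, 159, 219 and 152 CPM in HFDfri 1 to 4. Only HFDfre 2 reached into the range of HFDfri, the latter's spread was narrower than that of Hspa5, and the log2 fold change was 0.53 ± 0.14 (adjusted p = 0.0832 by edgeR). Dnajb11 (ERdj3), which carried the related element ERSE-II in its promoter window, had means of 52.9 ± 3.53 and 77.6 ± 30.3 CPM, with HFDfri 1 at 114 and HFDfri 3 at 89.3 CPM against 47.1 CPM in HFDfri 2, and its log2 fold change of 0.55 was 0.29 ± 0.16 without HFDfri 1. Dnajc1 (20.0 ± 2.27 and 23.2 ± 2.34 CPM) and Dnajc10 (15.9 ± 2.03 and 16 ± 0.706 CPM), a J protein with thioredoxin domains that reduces disulfides before degradation, had log2 fold changes of 0.22 ± 0.11 and 0.0094 ± 0.11.

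Hsp90b1 (GRP94), the ER member of the Hsp90 family, was 402, 521, 457, 387 and 456 CPM in HFDfre 1 to 5 and 1014, 378, 707 and 426 CPM in HFDfri 1 to 4. HFDfri 1 was the highest library and HFDfri 3 came next, while HFDfri 2 and 4 lay below the HFDfre mean, and the log2 fold change was 0.51 ± 0.24 (adjusted p = 0.261 by edgeR), or 0.17 ± 0.18 without HFDfri 1. Sdf2l1, which acts with BiP and the J proteins to keep clients from aggregating, was 13.8, 25.3, 17.3, 13.5 and 14.1 CPM in HFDfre 1 to 5 and 61.1, 11.9, 46.6 and 15.0 CPM in HFDfri 1 to 4. Here too HFDfri 1 and 3 were high and the other libraries of that group were not, and the log2 fold change was 1.003 ± 0.42 (adjusted p = 0.199 by edgeR), or 0.53 ± 0.38 without HFDfri 1.

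Of the 3 small stress proteins, Creld2 and Manf were higher at an unadjusted p under 0.05 and Creld1 was not. Creld2, a secreted stress protein with thiol isomerase activity (ENSMUSG00000023272, chr15:88819646-88826683, plus strand), was 13.6, 22.5, 15.1, 14.5 and 16.3 CPM in HFDfre 1 to 5 and 70.2, 9.72, 94.7 and 20.6 CPM in HFDfri 1 to 4. HFDfri 3 and 1 were at 5.78 and 4.29 times the HFDfre mean, HFDfri 4 lay within the HFDfre range and HFDfri 2 below it. The log2 fold change, the largest of the 38, was 1.57 ± 0.50 and missed the threshold over all genes (adjusted p = 0.116 by edgeR), and without HFDfri 3 it was 1.03 ± 0.46. Manf, a secreted factor that binds BiP and is released under stress, was 30.5, 31.1, 42.9, 31.9 and 41.8 CPM in HFDfre 1 to 5 and 98.3, 20.9, 133 and 45.4 CPM in HFDfri 1 to 4. Its HFDfri libraries stood in the same order as those of Hspa5, with HFDfri 2 below every HFDfre library, and its log2 fold change was 1.06 ± 0.39 (adjusted p = 0.160 by edgeR). Without HFDfri 3 it was 0.62 ± 0.36, and without HFDfri 1 it was 0.88 ± 0.42. In neither of these fits did Manf pass the unadjusted threshold. Creld1, the paralog of Creld2, was 35.3 ± 2.93 and 39.6 ± 6.03 CPM, a log2 fold change of 0.17 ± 0.11.

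**Figure D2:**
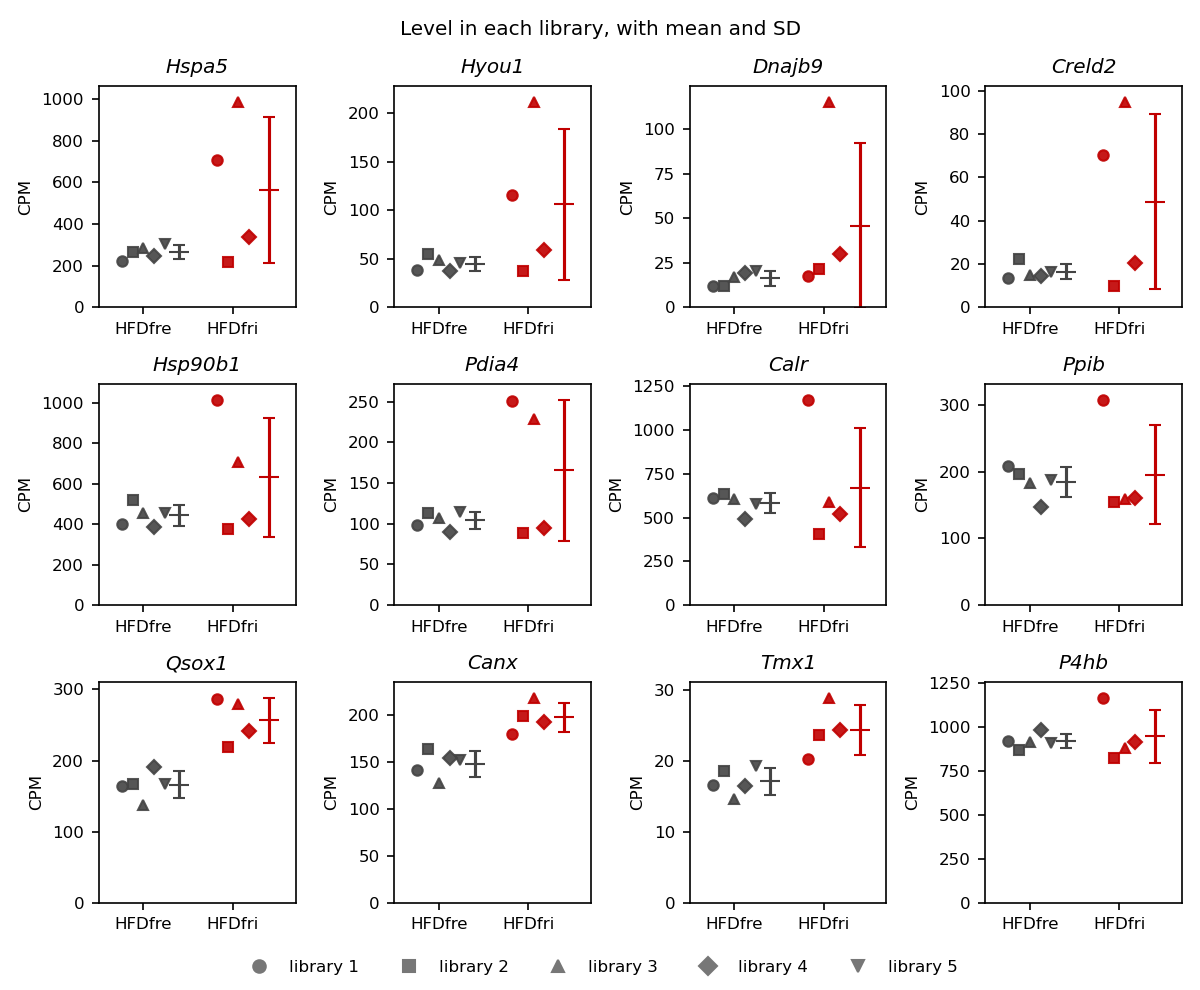
CPM of 12 genes in each library of HFDfre (grey) and HFDfri (red), with marker shape for the library number within its group and a bar for the mean and SD; each vertical axis starts at 0 and is linear. For Hspa5, Hyou1 and Creld2 HFDfri 1 and 3 stand far above the rest, for Dnajb9 HFDfri 3 alone, for Calr and Ppib HFDfri 1 alone, and for Qsox1, Canx and Tmx1 all 4 HFDfri libraries lie above all HFDfre libraries.

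The calnexin cycle, with 7 genes, had a median log2 fold change of 0.20, and 3 of the 7 (Canx, Uggt1 and Mogs) were higher at an unadjusted p under 0.05. Its lectins differed from each other. Canx, the membrane-bound lectin calnexin (ENSMUSG00000020368, chr11:50293961-50325673, minus strand), was 141, 163, 128, 154 and 152 CPM in HFDfre 1 to 5 and 179.9, 198, 218 and 192 CPM in HFDfri 1 to 4. The groups did not overlap, the HFDfri libraries lay within 1.22 to 1.48 times the HFDfre mean, and the log2 fold change was 0.42 ± 0.10 (adjusted p = 0.0589 by edgeR). Calr, its soluble counterpart calreticulin, was 612, 637, 609, 490.4 and 578 CPM in HFDfre 1 to 5 and 1171, 405, 588 and 522 CPM in HFDfri 1 to 4. HFDfri 1 alone was high, at 2 times the HFDfre mean, and HFDfri 2 was below every HFDfre library. The log2 fold change of 0.20 ± 0.25 did not pass the test (adjusted p = 0.689 by edgeR), and without HFDfri 1 it was -0.22.

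Of the enzymes that trim and restore glucose, Mogs (glucosidase I, which removes the first glucose) was 19.1, 18.9, 15.6, 18.2 and 18.2 CPM in HFDfre 1 to 5 and 19.4, 22.8, 29.4 and 21.1 CPM in HFDfri 1 to 4. All HFDfri libraries were above all HFDfre libraries, HFDfri 1 by a narrow margin, and the log2 fold change was 0.36 ± 0.12 (adjusted p = 0.133 by edgeR), or 0.23 ± 0.10 without HFDfri 3. Ganab and Prkcsh, the catalytic and regulatory subunits of glucosidase II, had log2 fold changes of 0.20 ± 0.09 and 0.13 ± 0.09. Uggt1, the folding sensor that puts glucose back on misfolded glycoproteins, had means of 32.1 ± 2.71 and 39.8 ± 7.48 CPM (log2 fold change 0.31 ± 0.12, and 0.17 ± 0.10 without HFDfri 1). Its paralog Uggt2 was scarce, at 0.857 to 1.86 CPM over all libraries, and its log2 fold change was 0.20 ± 0.31.

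The disulfide enzymes numbered 13, of which 12 had a log2 fold change above 0 and 5 (Pdia4, Pdia5, Pdia6, Tmx1 and Qsox1) were higher at an unadjusted p under 0.05; the median was 0.24. Qsox1 (ENSMUSG00000033684, chr1:155776029-155812889, minus strand) was the single gene called. It encodes a sulfhydryl oxidase that forms disulfides with molecular oxygen and occurs in the Golgi and outside cells. Qsox1 stood at 165, 167, 138, 192 and 168 CPM in HFDfre 1 to 5 and at 286, 219, 279 and 241 CPM in HFDfri 1 to 4. The groups did not overlap and the HFDfri libraries lay at 1.32 to 1.73 times the HFDfre mean. It rose by 0.63 ± 0.11 on the log2 scale, from a mean of 166 ± 19.0 CPM to 256 ± 31.6 CPM (adjusted p = 0.0354 by edgeR). The call was lost when HFDfre 1, 2, 3 or 5 or HFDfri 3 or 4 was left out, with log2 fold changes of 0.56 to 0.70 over the 9 omissions and an edgeR adjusted p of up to 0.100.

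Tmx1, a membrane-bound thioredoxin-related isomerase, was 16.7, 18.6, 14.6, 16.5 and 19.4 CPM in HFDfre 1 to 5 and 20.3, 23.7, 28.9 and 24.4 CPM in HFDfri 1 to 4, with no overlap. Its log2 fold change was 0.51 ± 0.12 (adjusted p = 0.0620 by edgeR). Tmx2, its relative, was 26.5 ± 2.88 and 30.5 ± 3.35 CPM, with HFDfri 2 the highest library at 35.0 CPM and a log2 fold change of 0.20 ± 0.11.

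The soluble isomerases showed different patterns. Pdia4 (ERp72) was 98.3, 113, 107, 89.4 and 114 CPM in HFDfre 1 to 5 and 251, 88.0, 229 and 94.3 CPM in HFDfri 1 to 4. HFDfri 1 and 3 were more than 2 times the HFDfre mean and the other HFDfri libraries under it, with a log2 fold change of 0.66 ± 0.28 (adjusted p = 0.206 by edgeR), or 0.38 ± 0.26 without HFDfri 1. Pdia5 was 31.7, 32.6, 29.2, 22.9 and 31.8 CPM in HFDfre 1 to 5 and 63.7, 31.9, 49.2 and 49.5 CPM in HFDfri 1 to 4. HFDfri 1, 3 and 4 were above all HFDfre libraries, and the log2 fold change was 0.71 ± 0.17 (adjusted p = 0.0658 by edgeR). Pdia6 (P5), an isomerase that binds BiP, was 155, 199, 155, 153 and 169 CPM in HFDfre 1 to 5 and 358, 214, 229 and 185 CPM in HFDfri 1 to 4. HFDfri 1, 2 and 3 were above all HFDfre libraries, and the log2 fold change was 0.57 ± 0.17 (adjusted p = 0.106 by edgeR), or 0.32 ± 0.11 without HFDfri 1.

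Pdia3 (ERp57), the partner of calnexin and calreticulin, was 330, 404, 365, 293 and 382 CPM in HFDfre 1 to 5 and 713, 261, 385 and 319 CPM in HFDfri 1 to 4. As for Calr, HFDfri 1 alone was above all HFDfre libraries and HFDfri 2 was below them, and the log2 fold change was 0.24 ± 0.24 (adjusted p = 0.600 by edgeR). P4hb, the protein disulfide isomerase proper, had means of 922 ± 40.9 and 948 ± 150.2 CPM, with HFDfri 1 at 1167 CPM and the other HFDfri libraries at 827 to 917 CPM, and its log2 fold change was 0.04 ± 0.11. Erp44, which retains oxidases and immunoglobulin subunits in the early secretory pathway, was 80.8 ± 9.48 and 73.0 ± 14.8 CPM, a log2 fold change of -0.15 ± 0.13. Erp29, a redox-inactive relative, was 36.0 ± 1.67 and 37.0 ± 8.14 CPM, and its annotated exons share 2390 bases with those of genes on the opposite strand, the most of the 38.

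Among the thioredoxin-domain proteins, Txndc11 was 15.9, 12.6, 15.9, 18.0 and 14.9 CPM in HFDfre 1 to 5 and 20.4, 11.8, 39.5 and 16.4 CPM in HFDfri 1 to 4. Like Dnajb9 it was far higher in HFDfri 3 than elsewhere, and its log2 fold change of 0.51 ± 0.27 was 0.07 ± 0.17 without that library. Txndc5 (0.11 ± 0.11) and Txndc12 (0.11 ± 0.08) had small log2 fold changes.

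The prolyl isomerases, which turn the peptide bond before proline, showed no gene past the unadjusted threshold, and their median log2 fold change was 0.08. Ppib (cyclophilin B) was 209, 197, 183, 148 and 187 CPM in HFDfre 1 to 5 and 307, 155, 159 and 161 CPM in HFDfri 1 to 4. HFDfri 1 was the highest of all libraries and the other libraries of its group lay toward the bottom of the HFDfre range, with a log2 fold change of 0.08 ± 0.20. Fkbp2 was 87.0, 62.6, 81.2, 73.1 and 79.2 CPM in HFDfre 1 to 5 and 86.4, 48.7, 51.3 and 55.1 CPM in HFDfri 1 to 4. HFDfri 2, 3 and 4 were below every HFDfre library and HFDfri 1 was not, and the log2 fold change was -0.34 ± 0.16 (adjusted p = 0.256 by edgeR). Left without HFDfri 1 it was -0.58 and passed the test (adjusted p = 0.0210 by edgeR). Fkbp11, found mainly in secretory cells, was 9.17 ± 1.95 and 10 ± 4.17 CPM, with HFDfri 1 at 16.1 CPM.

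Of the calcium-binding proteins, Calu (calumenin, an EF-hand protein that inhibits vitamin K-dependent carboxylation) was 39.8, 48.9, 37.6, 45.8 and 42.3 CPM in HFDfre 1 to 5 and 54.5, 60.1, 66.2 and 52.0 CPM in HFDfri 1 to 4. The groups did not overlap, and the log2 fold change was 0.44 ± 0.10 (adjusted p = 0.0617 by edgeR). Sdf4 (Cab45), an EF-hand protein of the Golgi lumen, was 76.3 ± 6.80 and 83.1 ± 8.99 CPM, a log2 fold change of 0.12 ± 0.10.

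**Figure D3:**
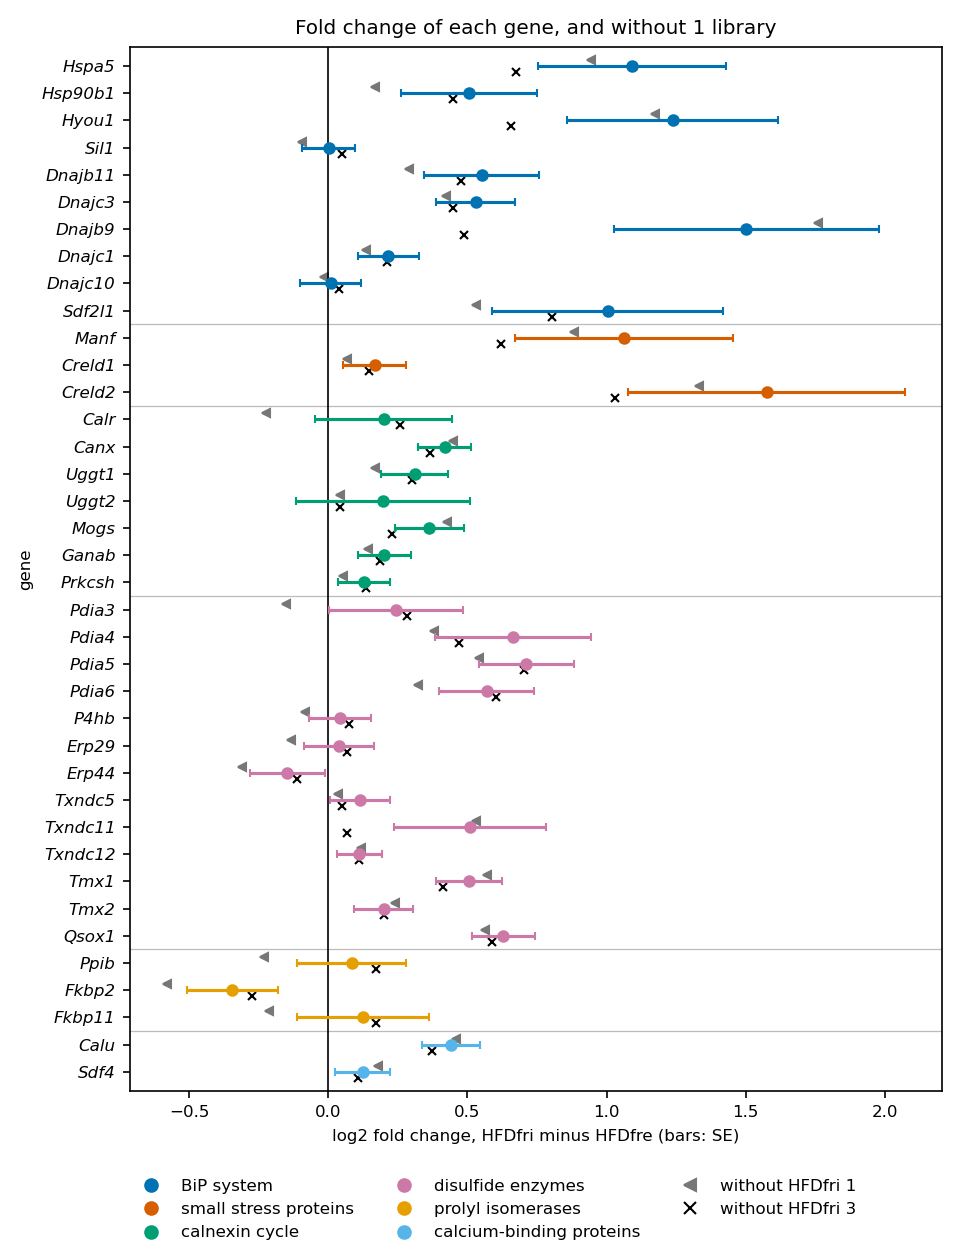
Log2 fold change (HFDfri minus HFDfre) of each of the 38 genes with its SE, coloured by role, and the value without HFDfri 1 (triangle) or without HFDfri 3 (cross). Creld2, Dnajb9, Hyou1, Hspa5, Manf and Sdf2l1 lie at 1.003 or above with wide bars. Sil1, Dnajc10, Calr, Pdia3, P4hb, Erp29, Ppib and Fkbp11 cross 0 without HFDfri 1. The crosses of Dnajb9 and Txndc11 lie at 0.49 and 0.07.

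Levels per length of exon, in CPM per kilobase varied widely among these genes. In HFDfre the order began with P4hb (322), Calr (203), Pdia3 (113), Hsp90b1 (110.3), Hspa5 (62.5) and Ppib (55.8), and ended with Dnajc1 (1.72) and Uggt2 (0.0941). Pdia3 and Hsp90b1 did not differ beyond their spread. Creld2 (12), Manf (10.1), Dnajb9 (6.35) and Hyou1 (6.22) were all far below these 6. In HFDfri Hspa5 (133), Pdia3 (134) and Hsp90b1 (157) did not differ beyond the spread between libraries.

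The HFDfri libraries that exceeded every HFDfre library were not the same for all genes. HFDfri 1 and 3 but not the others did so for 10 genes (Hsp90b1, Dnajc1, Sdf2l1, Creld1, Creld2, Uggt1, Ganab, Pdia4, Txndc5 and Txndc11), and HFDfri 1, 3 and 4 for 5 (Hspa5, Hyou1, Dnajb11, Manf and Pdia5). HFDfri 1 alone did so for 9, namely Sil1, Calr, Prkcsh, Pdia3, P4hb, Erp29, Erp44, Ppib and Fkbp11. For Dnajb9 and Txndc12 it was HFDfri 2, 3 and 4, for Tmx2 and Sdf4 HFDfri 2 alone, and for Dnajc3 and Pdia6 HFDfri 1, 2 and 3. Dnajc10, Uggt2 and Fkbp2 had no such library. Over all tested genes the pattern of HFDfri 1 and 3 was found in 3.89% (26.3% of the 38), that of 1, 3 and 4 in 2.13% (13.2%), that of 1 alone in 8.83% (23.7%), that of 1, 2 and 3 in 1.92% (5.26%) and no such library in 49.7% (7.89%). The patterns of HFDfri 2, 3 and 4 (5.64%) and of HFDfri 2 alone (4.90%) were about as frequent over all tested genes as among the 38 (5.26% each).

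**Figure D4:**
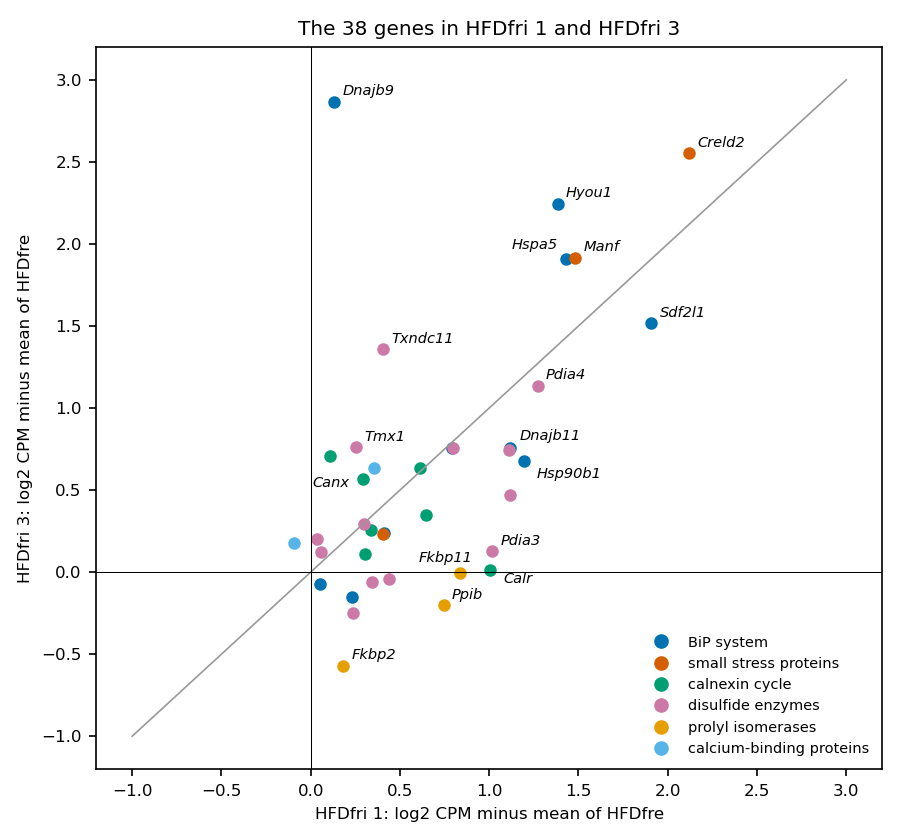
Each point is 1 of the 38 genes, by its log2 CPM minus the HFDfre mean in HFDfri 1 (horizontal axis) and in HFDfri 3 (vertical axis), coloured by role, with the line of equal values. Creld2, Hyou1, Manf, Hspa5 and Sdf2l1 were high in both libraries, Dnajb9 and Txndc11 lie far above the line, and Calr, Pdia3, Ppib and Fkbp11 lie along the horizontal axis.

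The genes with an ERSE in the promoter window, whose sequences are given above, had a median log2 fold change of 0.53, and 5 of these 7 (Hspa5, Dnajc3, Creld2, Canx and Pdia6) were higher at an unadjusted p under 0.05. The 27 with a window and no ERSE had a median of 0.20, and 10 of them were higher at that threshold. Calr and Hsp90b1, with 1 and 2 elements, were the holders that did not pass it. The related ERSE-II, searched as ATTGG, 1 base of any kind and CCACG, was in the window of Dnajb11 alone of the 34 (0.0444% of all genes). TGACGTG, the core of the UPR element that XBP1 and ATF6 are known to bind, was in 5 windows (14.7%, against 2.22% of all genes): those of Hspa5, Mogs, Txndc5, Txndc11 and Fkbp11. Their log2 fold changes ran from 0.11 for Txndc5 to 1.09 for Hspa5, with a median of 0.36 against 0.24 for the 29 without it. At an unadjusted p under 0.05, 2 of these 5 were higher, and 13 of the 29. CCACG, the end part that the ERSE and ERSE-II share, was in 24 windows (70.6%, against 35.5% of all genes). The 24 had a median of 0.43, and 11 were higher at an unadjusted p under 0.05. The 10 without it had a median of 0.22, and 4 were higher. These matches are descriptions of letters, and the regulation of these promoters was not measured.

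**Figure D5:**
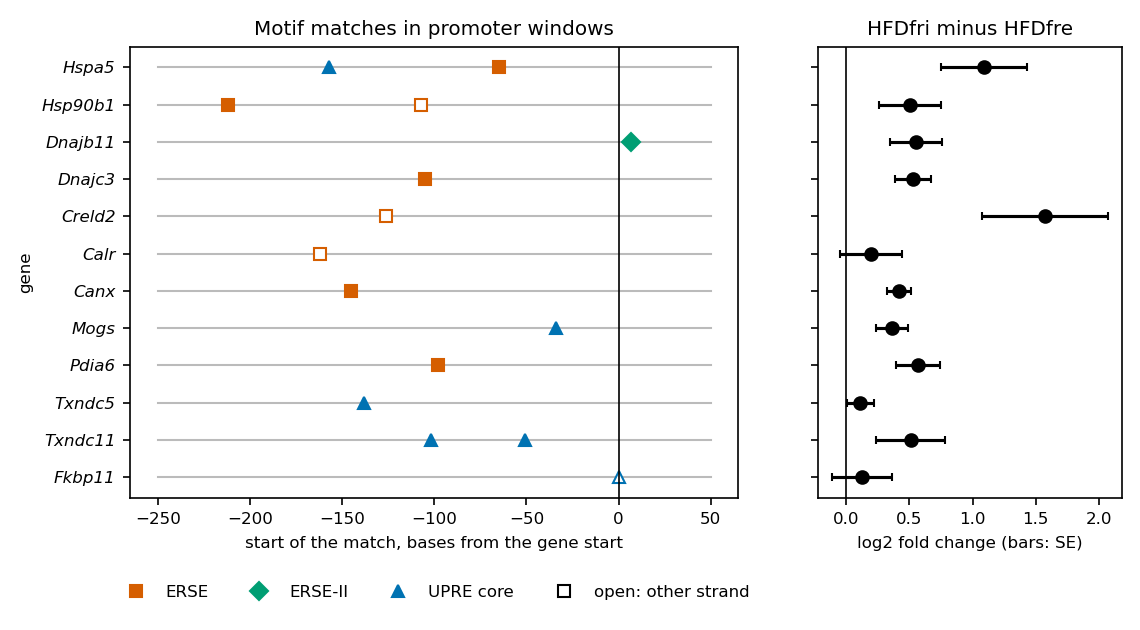
Left, the start of each match to the ERSE (squares), ERSE-II (diamond) and UPR element core (triangles, "UPRE core") in bases from the RefSeq gene start, over a window from 250 bases before to 50 bases after it, filled for the strand of the gene and open for the other strand. Right, the log2 fold change of the same 12 genes with its SE; the 7 ERSE genes run from 0.20 for Calr to 1.57 for Creld2.

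Other genes of the pathway and of other compartments were counted in the same fit. Over all tested genes, 49.1% had a log2 fold change above 0 and 1.05% passed the adjusted threshold. At an unadjusted p under 0.05, 11.4% were higher and 9.79% lower. Of 13 UPR sensors and factors, 13 had a log2 fold change above 0, 9 were higher at an unadjusted p under 0.05, 0 passed the adjusted threshold, and the median was 0.37. Atf6, the sensor that becomes a transcription factor, was 37.3, 39.5, 35.1, 41.6 and 40.8 CPM in HFDfre 1 to 5 and 43.4, 53.2, 56.3 and 47.9 CPM in HFDfri 1 to 4. All its HFDfri libraries were above all HFDfre libraries, HFDfri 2 among the higher, and the log2 fold change was 0.37 ± 0.10 (adjusted p = 0.0792 by edgeR). Xbp1, the factor that IRE1 activates by splicing, was 156, 126, 135, 126 and 139.8 CPM in HFDfre 1 to 5 and 382, 146, 192 and 155 CPM in HFDfri 1 to 4. HFDfri 1 was by far the highest, and the log2 fold change was 0.68 ± 0.24 (adjusted p = 0.147 by edgeR); these gene counts do not separate the spliced form.

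Eif2ak3, which encodes PERK, was 5.14, 4.45, 5.28, 5.69 and 6.90 CPM in HFDfre 1 to 5 and 7.18, 6.44, 22.4 and 5.89 CPM in HFDfri 1 to 4. HFDfri 3 alone was far above the rest, the library in which Dnajb9 stood out, and the log2 fold change was 0.93 ± 0.35 (adjusted p = 0.166 by edgeR). Ern1, which encodes IRE1, was 31.2, 35.0, 33.7, 29.8 and 34.5 CPM in HFDfre 1 to 5 and 50.8, 38.6, 56.2 and 29.2 CPM in HFDfri 1 to 4. HFDfri 4 was below every HFDfre library and the other HFDfri libraries above them, with a log2 fold change of 0.41 ± 0.16 (adjusted p = 0.174 by edgeR). Atf4, the factor downstream of PERK, had 0.10 ± 0.14.

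Of 35 other ER folding genes tested (of 37 in the table), 21 had a log2 fold change above 0, 9 were higher and 1 was lower at an unadjusted p under 0.05, and the median was 0.14. Of 36 chaperones of the cytosol and mitochondria, 34 were above 0, 21 (58.3%) were higher and 0 lower at that threshold, and the median was 0.32. Of 28 secreted hepatocyte proteins, the clients of this machinery, 20 were above 0, 12 were higher and 2 lower at that threshold, and the median was 0.20. The shares of all tested genes were 49.1% above 0, and 11.4% higher and 9.79% lower at that threshold. Fga, the fibrinogen alpha chain, was the single gene of these comparison lists past the adjusted threshold. It was 1752, 2212, 1534, 1824 and 1988 CPM in HFDfre 1 to 5 and 4895, 2923, 3191 and 3678 CPM in HFDfri 1 to 4, the groups did not overlap, and it rose by 0.98 ± 0.16 on the log2 scale (adjusted p = 0.0293 by edgeR).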

How the data were processed

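Liver RNA was sequenced as paired-end reads from 9 libraries (HFDfre, n = 5; HFDfri, n = 4). The authors deposited a table of estimated counts per gene, made per the submitters' processing notes with HISAT2 and StringTie on mm10, and the values are whole numbers that are not scaled between libraries. The annotation, the strand setting and the program that wrote the table are not given in the sources used here, and the labels and the study's methods name different library kits. Small values are often multiples of 4 (there are 3990 entries of 4 and 1840 of 5), so counts divided by 4 were tried as an alternative.

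Genes were kept with filterByExpr (14220 of 33211), scaled by TMM and compared in edgeR 4.0.16 (R 4.3.3) by its quasi-likelihood test without covariates, as HFDfri minus HFDfre, with Benjamini-Hochberg adjustment over all tested genes. The SE is the size of the log2 fold change divided by the square root of F. CPM are TMM-scaled, log2 CPM used a prior count of 2, and lengths are exon unions of GENCODE M21 (GRCm38), which held 96.5% of the identifiers. Library totals of 58614917 to 69353439 left each of the 38 genes but Uggt2 with at least 435 counts per library (Uggt2 had 56 to 133). The scripts were tested on simulated data.

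The alternatives were DESeq2 1.42.0 (the test of the study), limma-voom (limma 3.58.1), other scalings, filters and dispersions, terms for the Gm26924 share, the replicate number and omission of each library. A GC and length correction was added after the data were seen. The members and lists were chosen with earlier results of these data known, so no list was tested. All 38 genes are named. Of the comparison lists, those named are Atf6, Xbp1, Ern1, Eif2ak3, Atf4 and any gene past the adjusted threshold. Sequences are shown for 5 ERSE genes by mean CPM and for Creld2, which was added after its values were seen. Protein sequences were not analysed here.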

Additional observations from a re-analysis of the deposited data

Results flagged for a closer look

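Each gene was checked in each group for a library whose gap to its nearest neighbour, as a share of the group's range of log2 CPM, exceeded Dixon's critical value. Of 76 sets of libraries 4 were past it, where chance gives about 1 in 20 (3.8 sets). Ppib in HFDfri had a gap of 0.948, with HFDfri 1 at 307 CPM and the other libraries at 155 to 161 CPM. Dnajb11 in HFDfre had a gap of 0.817, with HFDfre 2 at 59.1 CPM against 50.6 to 52.1 CPM. Txndc12 in HFDfre had a gap of 0.768, with HFDfre 3 at 18.6 CPM against 20.7 to 21.4 CPM. Mogs in HFDfre had a gap of 0.766, with HFDfre 3 at 15.6 CPM against 18.2 to 19.1 CPM.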

How the results depend on the processing

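The median log2 fold change of the 38 genes stayed above 0 under all 23 alternatives, from 0.17 to 0.37. With the GC and length correction it was 0.19, against 0.28 in the main fit. Over the tested genes with a known length, the Spearman correlation of the log2 fold change with transcript length was 0.20. Among the 38 it was 0.07. The number of the 38 past the adjusted threshold was 1 (1.05% of all genes were), and became 7 with DESeq2 (7.51% of all genes). Those 7 were Dnajc3, Canx, Pdia5, Pdia6, Tmx1, Qsox1 and Calu. The number was 2 with library totals (0.534%), 5 with a batch term for the Gm26924 share (3.38%) and 0 with that share as a covariate (0.267%). Within the libraries where the share was under 3% it was 0 (0.0138%). Omission of 1 library gave 0 to 7, where 0.0426% to 7.65% of all genes passed. The number higher at an unadjusted p under 0.05 was 17 (44.7%, against 11.4% of all genes). It was 5 within the low-share libraries (13.2%, against 4.81%), where fewer libraries were tested. On omission of 1 library it ran from 11 without HFDfri 3 (28.9%, against 7.03%) to 20 without HFDfri 2 (52.6%, against 10.3%). With HFDfri 1 left out, 13 were higher (34.2%, against 12.8%) and 2 lower. The genes without overlap numbered 5, and 5 to 10 on omission of 1 library (8 without HFDfre 2, 8 without HFDfri 1, of which 1 was lower in HFDfri, and 10 without HFDfri 2). Over all genes 4.02% lay above and 3.66% below, and 5.20% and 6.11%, 9.16% and 8.77%, and 6.10% and 6.05% on those omissions. With CCACG alone in place of the whole ERSE, 24 genes had a match. Of 874 values of single genes under an alternative, 813 kept their direction and side of the threshold, 22 newly passed it, 9 no longer did (all Qsox1, edgeR adjusted p of 0.0574 to 0.408) and 30 changed sign, none of them in a gene past the threshold.

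The replicate numbers are those of the sample titles, which name no pairs. The correlations of same-numbered libraries (-0.14 to 0.081) therefore cannot show whether libraries were paired in another way. The fit with the replicate number as a block had 0 of the 38 genes past the adjusted threshold, and 0 of all genes. At an unadjusted p under 0.05, 11 of the 38 were higher (28.9%, against 9.10% of all genes) and 1 was lower. The median was 0.32, and Sil1 was at -0.016.

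The log2 fold changes that changed sign were these, and the cause was not tested. Sil1 was -0.00459 with limma-voom, -0.00794 without a filter, -0.00837 with at least 10 counts, -0.00986 with counts divided by 4, -0.00252 with the batch term and -0.0936 to 0.0505 on omission of 1 library. Dnajc10 was -0.00090 without a filter, -0.00141 with at least 10 counts, -0.00523 with counts divided by 4, -0.066 with the covariate, -0.0101 with the batch term, -0.083 with the GC and length correction and -0.067 to 0.065 on omission. Uggt2 was -0.14 and Fkbp11 -0.072 within the low-share libraries, Fkbp11 was -0.0066 with the covariate, and Erp29 -0.032 with the GC and length correction. On omission of 1 library Calr ran from -0.22 to 0.38, Pdia3 from -0.15 to 0.41, P4hb from -0.085 to 0.10, Erp29 from -0.13 to 0.12, Ppib from -0.23 to 0.18 and Fkbp11 from -0.21 to 0.27, each lowest without HFDfri 1.

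With 4 and 5 libraries and HFDfri 1 and 3 apart from the rest, the precision is set by the spread between libraries and not by depth. The library kit and the strand setting were not settled, and reads of overlapping genes cannot be told apart where strand was not used.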

Other observations

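Gene groups outside the ER also differed by library. The mean log2 CPM of the 28 secreted hepatocyte proteins was 11.1 to 11.3 in HFDfre, 11.8 in HFDfri 1 and 11.3 to 11.4 in the other HFDfri libraries. That of the 36 cytosolic and mitochondrial chaperones was 5.40 to 5.76 in HFDfre and 5.95, 5.63, 6.34 and 5.88 in HFDfri 1, 2, 3 and 4, highest in HFDfri 3. Among the roles in the ER, the mean of the prolyl isomerases was 5.42 to 5.83 in HFDfre, 6.24 in HFDfri 1 and 5.22 to 5.39 in the other HFDfri libraries, while that of the BiP system was 5.52 to 5.80 in HFDfre, and 6.53, 5.62, 6.74 and 5.87 in HFDfri 1, 2, 3 and 4. Markers of other cell types were counted at an unadjusted p under 0.05 in edgeR. At that threshold 11.4% of all tested genes were higher in HFDfri and 9.79% were lower. Of these markers, 4 of 10 for stellate cells and 3 of 10 for endothelial cells were lower in HFDfri. So were 2 of 10 plasma and B cell markers and 2 of 3 adipocyte markers tested. No marker on these lists was higher at that threshold. The adipocyte markers Adipoq and Plin1 were at 0 in every library and could not be tested. Higher in HFDfri were 1 of 7 cholangiocyte and 1 of 2 pancreatic acinar markers tested. For Kupffer cells 0 of 10 markers passed in either direction. None of the markers of these cell types passed the adjusted threshold.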
